A study of Mus musculus with 6 samples.

Results

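The glucocorticoid receptor gene and 9 of its classic muscle target genes were followed in gastrocnemius (Gas) muscle of wild-type (WT) mice and of mice without the microRNA miR-92b (M92KO). The genes were chosen by symbol from a list of known glucocorticoid-responsive genes, and all 10 were found among the 34714 gene symbols of the count table. They are Nr3c1, which encodes the receptor, and Fkbp5, Tsc22d3, Klf15, Klf9, Cebpd, Zbtb16, Mt1, Mt2 and Sgk1. All 10 passed the low-count filter that left 15788 genes for the test. In edgeR's quasi-likelihood test, Zbtb16 was higher and Nr3c1 and Sgk1 were lower in M92KO muscle at an unadjusted p under 0.05, which makes 3 of 10 genes against 12.4% of all genes tested. After Benjamini-Hochberg adjustment over the 15788 genes, no gene of the 10 or of the whole table had an adjusted p under 0.05. The mouse of WT replicate 3 had the highest level of 7 of the 10 genes, and without it Klf15, Mt1 and Mt2 changed the sign of their difference.

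Gas RNA of 3 WT and 3 M92KO mice was sequenced, with 1 library for each mouse. All mice were 8 weeks old and received no treatment, and they ate a standard rodent diet freely. The supplementary methods describe an overnight fast before mice were killed and muscles were taken, without naming the sequenced mice. The M92KO strain carries a global deletion of miR-92b on a C57BL/6JGpt background, so the microRNA is missing in every tissue and not in muscle alone. The methods describe the knockout mice as male and name C57BL/6 mice of the same age, not stated to be littermates, as WT controls. No mouse was given a glucocorticoid, and the labels give neither hormone levels nor the hour at which muscles were taken.

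Glucocorticoids, corticosterone in the mouse, cross the cell membrane and bind a receptor that waits in the cytoplasm in a complex of heat shock proteins and immunophilins. The loaded receptor moves into the nucleus and binds glucocorticoid response elements, which are imperfect palindromes of the letters AGAACA and TGTTCT spaced by 3 bases. In skeletal muscle, the hormone is known to favour protein breakdown, amino acid release and a switch from glucose to fat as fuel. Corticosterone in the blood follows the time of day and rises with stress and handling, and several of the genes described here follow it within hours.

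Both mature strands of the deleted microRNA are shown, because the letters opposite their seeds were searched in the transcripts of the 10 genes. The sequences are from RefSeq (GRCm38.p6), the seed (bases 2 to 8) is in capitals, and both lie on the minus strand of chromosome 3, miR-92b-3p at chr3:89227126-89227147 and miR-92b-5p at chr3:89227165-89227188. The strands have different seeds. The deletion of miR-92b itself was not analysed here.
miR-92b-3p: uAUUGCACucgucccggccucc
miR-92b-5p: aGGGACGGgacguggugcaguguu

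In the annotated 3′-UTRs, 3 of the 10 genes (Fkbp5, Klf15 and Sgk1) held a seed match of miR-92b-3p, against 15.7% of the 13683 tested genes whose annotated 3′-UTR has 20 bases or more. For miR-92b-5p, 1 gene (Fkbp5) held a match, against 7.03%. Counted were 7mers, which pair with the whole seed or with bases 2 to 7 before an A, and 8mers, which have both. The sites are shown in transcript sense with the match in capitals (GENCODE M21, GRCm38). The site of Fkbp5 for miR-92b-3p is an 8mer at chr17:28436780-28436787 on the minus strand, in 1 annotated transcript, and its site for miR-92b-5p is an 8mer at chr17:28400256-28400263 in 4 transcripts. Those of Klf15 (chr6:90474337-90474343) and Sgk1 (chr10:21999872-21999878), both on the plus strand, are 7mers that pair with bases 2 to 7 and have an A opposite base 1 of the microRNA, and the match in Sgk1 overlaps the letters AATAAA, the usual signal for polyadenylation.
Fkbp5, miR-92b-3p: cccagggaccaGTGCAATAcatacaccgtc
Fkbp5, miR-92b-5p: aaggcttgctcCCGTCCCAgactcgagtgg
Klf15, miR-92b-3p: ttgtttttaaaTGCAATAacttattgcct
Sgk1, miR-92b-3p: caattttggttTGCAATAaaatcttgaaa
A match describes letters in a window and is not evidence of binding. In M92KO muscle, where the microRNA is missing, the log2 fold change was 0.10 for Fkbp5, -0.15 for Klf15 and -0.42 for Sgk1, and none of the 3 passed the adjusted test.

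The libraries held between 33160508 and 48209846 counts, and the M92KO libraries were the smaller ones. In CPM (counts scaled to the size of a library, here with TMM factors between 0.981 and 1.03), the detection floor of 3 counts stood at 0.0629 to 0.0916, a limit set by counting error alone. All 10 genes lay above it in every library, with 74 to 359 counts for Mt2, the least counted, and 13675 to 34665 counts for Sgk1, the most counted. Markers of muscle fibres (Acta1, Ckm, Des, Mb, Myh4, Myh1, Tnnt3 and Ttn) summed to between 108636 and 117365 CPM in WT and between 111504 and 114951 CPM in M92KO libraries, so that the defining genes of the labelled tissue were high in every library. By principal components of log2 CPM, WT libraries had negative and M92KO libraries positive values on the first component (28.3% of the variance). The values were -8.34, -21.5 and -24.0 in WT and 9.76, 24.1 and 19.9 in M92KO replicates 1 to 3. M92KO replicate 1 stood apart from the other 5 libraries on the second component (25.8%).

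Levels were also put on a scale of CPM per kilobase of annotated exons, for an approximate comparison between genes. The exons of all transcripts of a gene were counted, and an expressed transcript can be shorter. The order in WT muscle was Sgk1 (123 ± 28.3 SD), Tsc22d3 (79.1 ± 28.7), Klf9 (65.1 ± 3.98), Klf15 (23.8 ± 6.55), Nr3c1 (19.1 ± 1.18), Zbtb16 (17.9 ± 0.769), Mt1 (11.8 ± 8.82), Cebpd (7.75 ± 3.89), Mt2 (6.62 ± 5.40) and Fkbp5 (3.46 ± 0.725), each over 3 mice. Of neighbours in this order, only Klf9 and Klf15 had ranges that did not overlap. Fkbp5, often used as a blood and tissue marker of glucocorticoid exposure, was the lowest of the 10 per length. Its annotated exons, over all transcripts, were the longest of the 10 (9468 bases). Its mean WT level of 32.7 CPM was above those of Cebpd (29.0), Mt1 (14.7) and Mt2 (3.89).

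**Figure D1:**
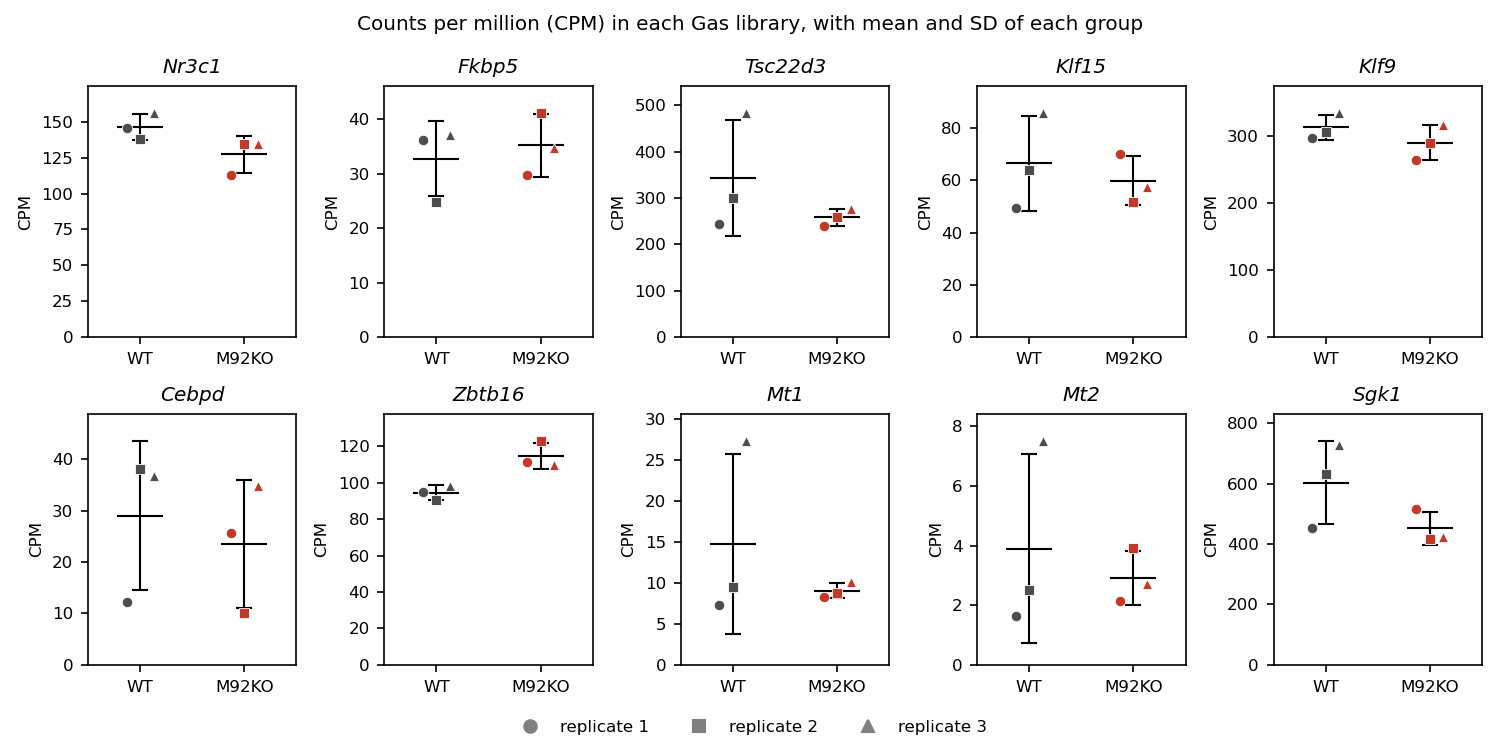
CPM (counts scaled to library size, vertical axes from 0, a separate scale for each gene) of the 10 genes in each Gas library of WT and M92KO mice, with replicates 1 to 3 as circles, squares and triangles and the mean ± SD of 3 mice as black bars. The groups do not overlap for Nr3c1 and Zbtb16, and WT replicate 3 is the highest point for 7 genes.

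The receptor gene, Nr3c1, varied by 1.39-fold between the lowest and the highest of the 6 mice. Its values were 145.5, 138.1 and 156.1 CPM in WT and 112.7, 134.2 and 134.7 CPM in M92KO muscle. Each M92KO value was below each WT value, with WT replicate 2 and M92KO replicate 3 the nearest to each other. The mean was 147 ± 9.09 CPM in WT and 127 ± 12.6 CPM in M92KO (SD, n = 3), and the log2 fold change was -0.20 with a standard error of 0.089. The unadjusted p was 0.0483 and the adjusted p was 0.399 in edgeR, and an exact two-sided permutation test gave 0.1, the smallest value that 3 mice against 3 allow. When each library was left out in turn, 3 of the 6 fits kept its unadjusted p under 0.05. The log2 fold change was -0.16 without WT replicate 3 and -0.12 without M92KO replicate 1, and in neither of these fits was the unadjusted p under 0.05. In whole muscle, fewer cells of a type and less RNA per cell cannot be told apart, for this gene and for all that follow.

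Fkbp5 encodes an immunophilin that binds the receptor complex and lowers its affinity for the hormone, and the receptor in turn induces it. Its levels were 36.2, 24.8 and 37.2 CPM in WT and 29.7, 41.1 and 34.7 CPM in M92KO muscle. The groups overlapped, with the lowest value in WT replicate 2 and the highest in M92KO replicate 2. The means of 32.7 ± 6.86 and 35.2 ± 5.74 CPM gave a log2 fold change of 0.10 with a standard error of 0.17 (adjusted p = 0.852, edgeR). The sign turned to -0.06 without WT replicate 2 and to -0.02 without M92KO replicate 2.

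Tsc22d3 encodes GILZ, a leucine zipper protein that carries part of the anti-inflammatory action of glucocorticoids. It measured 245, 301 and 484 CPM in WT and 239, 260 and 276 CPM in M92KO mice. WT replicate 3 was the highest, at 1.86 times the median of the other 5 libraries, WT replicate 2 was above all M92KO values, and WT replicate 1 lay inside their range. The log2 fold change was -0.41 with a standard error of 0.22 (adjusted p = 0.493, edgeR), from means of 343 ± 125 CPM in WT and 258 ± 18.4 CPM in M92KO. It was -0.08 without WT replicate 3 and -0.60 without WT replicate 1, and in the latter fit the unadjusted p was under 0.05.

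Among the transcription factors that the receptor induces, 3 were lower and 1 was higher in mean M92KO level. Klf15 drives amino acid breakdown and lipid use in muscle. It was found at 49.5, 64.1 and 85.8 CPM in WT and at 70.1, 51.8 and 57.6 CPM in M92KO libraries. The WT values enclosed all M92KO values. The log2 fold change was -0.15, with a standard error of 0.19 and an adjusted p of 0.802 in edgeR, and it turned to 0.07 without WT replicate 3.

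The stretch of the Klf15 promoter between 250 and 151 bases before its start is shown because it holds elements known from clock and from metal control. It lies at chr6:90462326-90462425 on the plus strand (RefSeq, GRCm38.p6). Capitals mark CACGTG, the E-box read by clock factors and others, and TGCGCNC, the core of a metal response element, searched on both strands. The second E-box overlaps the metal element.
Klf15: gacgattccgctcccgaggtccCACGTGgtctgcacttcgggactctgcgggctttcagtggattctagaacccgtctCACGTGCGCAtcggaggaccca
The window of 250 bases before to 50 bases after the start held 3 E-boxes in all. CACGTG was found in 7.15% of the 32851 promoter windows of the reference and TGCGCNC in 15.4%. TGACGTCA, the element of cyclic AMP signalling, was found in 1.79% of them and in no window of the 10 genes.

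Klf9, a factor that restrains proliferation and is induced by glucocorticoids in many tissues had an SD of 6.12% of its mean in WT mice, beside 6.20% for Nr3c1 and 4.30% for Zbtb16. Its values were 298, 307 and 335 CPM in WT and 265, 290 and 317 CPM in M92KO muscle. The groups overlapped, and the log2 fold change was -0.11 with a standard error of 0.086 (adjusted p = 0.667, edgeR). With a library left out it ran from -0.18 (without M92KO replicate 3) to -0.048 (without M92KO replicate 1), and it was -0.060 without WT replicate 3. Its window held no E-box, no metal element, no element of cyclic AMP signalling and no AGAACA, alone or in a palindrome.

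Cebpd encodes a C/EBP factor that answers to glucocorticoids and to inflammatory cytokines. Its levels of 12.3, 38.1 and 36.8 CPM in WT and of 25.6, 10.1 and 34.8 CPM in M92KO mice spread widely in both genotypes. WT replicate 1 and M92KO replicate 2 were low and the other libraries were higher, so that the SD was 50.1% of the mean in WT and 53.2% in M92KO. The log2 fold change was -0.30 with a standard error of 0.48 (adjusted p = 0.850, edgeR), and it turned to 0.06 without M92KO replicate 2. An exon of Cebpd overlaps one of Spidr on the other strand, and the strandedness of the counting is not given in the sources used here, so reads of the 2 genes may not be told apart.

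Zbtb16 encodes PLZF, a zinc finger repressor that is induced by glucocorticoids in many cell types. It had 94.8, 90.3 and 98.4 CPM in WT and 111.6, 123.0 and 109.8 CPM in M92KO libraries. All M92KO values were above all WT values. With means of 94.5 ± 4.06 and 115 ± 7.17 CPM (SD, n = 3), the log2 fold change was 0.28 with a standard error of 0.072, a level 1.21-fold higher in M92KO muscle. Its unadjusted p of 0.00405 was the smallest of the 10 genes, the adjusted p was 0.211 in edgeR, and the exact permutation test gave 0.1. In each of 14 alternative settings the gene was higher in M92KO with an unadjusted p under 0.05, with log2 fold changes between 0.23 and 0.31 and adjusted p-values between 0.0559 (DESeq2) and 0.595.

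Sgk1 encodes a kinase related to Akt that is induced by glucocorticoids and by mineralocorticoids and acts on ion channels and on FoxO factors. Its values were 453, 631 and 726 CPM in WT and 516, 418 and 425 CPM in M92KO muscle. WT replicates 2 and 3 were above every M92KO library, while WT replicate 1 was below M92KO replicate 1, so the groups overlapped. The mean was 604 ± 139 CPM in WT and 453 ± 54.8 CPM in M92KO, a log2 fold change of -0.42 with a standard error of 0.16. The unadjusted p was 0.0338 and the adjusted p was 0.367 in edgeR, and the exact permutation test gave 0.2. Without WT replicate 3, which was at 1.60 times the median of the other libraries, the log2 fold change was -0.26 (adjusted p = 0.721 in edgeR). The unadjusted p stayed under 0.05 in 2 of the 6 fits that left out a library, those without WT replicate 1 and without M92KO replicate 1.

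Sgk1 has 6 promoter windows in the RefSeq table, and the stretch from 250 to 101 bases before the start of the fifth is shown because it holds the complete palindrome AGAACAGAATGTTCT. It lies at chr10:21993640-21993789 on the plus strand (GRCm38.p6), with the palindrome at bases 189 to 175 before the start. Capitals mark the palindrome, and at the 5′ end an E-box whose last letters overlap a TGTTCT.
Sgk1: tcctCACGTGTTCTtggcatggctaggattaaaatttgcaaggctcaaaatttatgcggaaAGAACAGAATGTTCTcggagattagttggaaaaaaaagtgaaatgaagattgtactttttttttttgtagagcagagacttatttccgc
The complete palindrome was found in 3 of the 32851 windows (0.00913%), whereas AGAACA on either strand was found in 19.0% of them. Of the 10 genes, 7 have windows in the table, with 1 each for Fkbp5, Klf15, Klf9, Mt1 and Mt2 and 3 for Tsc22d3. Nr3c1, Cebpd and Zbtb16 have none. Beside the fifth window of Sgk1, another pair of its windows held 1 AGAACA each (both strands searched) and the last held 1 TGCGCNC. Fkbp5 held 1 E-box and the third window of Tsc22d3 held 1 TGTTCT. Letters outside these windows were not searched.

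The metallothioneins Mt1 and Mt2 bind zinc and copper and are induced by metals as well as by glucocorticoids. Mt1 had 7.36, 9.48 and 27.4 CPM in WT and 8.29, 8.76 and 10.1 CPM in M92KO muscle. Mt2 had 1.65, 2.51 and 7.52 CPM in WT and 2.13, 3.91 and 2.73 CPM in M92KO muscle. For both genes WT replicate 3 was far above the rest, at 3.12 times the median of the other 5 libraries for Mt1 and 2.996 times for Mt2, while WT replicate 1 was the lowest library and WT replicate 2 lay inside the M92KO range.

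The log2 fold change was -0.70 for Mt1 (standard error 0.43, adjusted p = 0.565 in edgeR) and -0.42 for Mt2 (standard error 0.51, adjusted p = 0.793 in edgeR). Without WT replicate 3 both turned, to 0.11 for Mt1 and 0.49 for Mt2. The SD of the WT mice was 74.6% of the mean for Mt1 and 81.5% for Mt2, against 10.6% and 31.0% in M92KO mice. Mt2 overlaps an antisense gene, Gm45774, with which its reads may be mixed.

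The promoters of both metallothionein genes are shown because metals and glucocorticoids act on them. They lie on the plus strand of chromosome 8 (RefSeq, GRCm38.p6), that of Mt1 at chr8:94178989-94179078, 100 to 11 bases before its start, and that of Mt2 at chr8:94172368-94172617, the 250 bases before its start. Capitals mark the metal response element cores TGCGCNC and TGCACNC on either strand. TGCACNC was found in 12.6% of all windows.
Mt1: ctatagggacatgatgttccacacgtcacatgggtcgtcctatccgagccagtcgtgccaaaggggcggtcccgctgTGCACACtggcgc
Mt2: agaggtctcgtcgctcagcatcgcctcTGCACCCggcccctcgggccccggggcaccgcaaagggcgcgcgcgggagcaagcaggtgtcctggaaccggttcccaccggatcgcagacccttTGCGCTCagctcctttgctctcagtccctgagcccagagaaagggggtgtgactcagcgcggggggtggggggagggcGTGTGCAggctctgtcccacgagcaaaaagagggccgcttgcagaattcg
With the 50 bases after the start, the window of Mt1 held 3 such cores and that of Mt2 held 4. Neither window held AGAACA or TGTTCT. The stretch of Mt2 is also annotated as exon of Gm45774 on the other strand.

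Counted over the 10 genes, 1 was higher (Zbtb16) and 2 were lower (Nr3c1 and Sgk1) in M92KO muscle at an unadjusted p under 0.05 in edgeR, against 12.4% of all genes tested (5.47% higher and 6.92% lower). At an adjusted p under 0.05 it was 0 of 10, against 0.0% (0 of 15788), and the smallest adjusted p of any gene was 0.124. DESeq2 and the limma steps of the supplementary methods gave 0 of the 10 at an adjusted p under 0.05. Over all genes these fits gave 312 (DESeq2) and 42 (limma steps). At an unadjusted p under 0.05 they gave 3 and 2 of the 10, against 1722 and 2287 of all genes. DESeq2 was run on the 15788 genes and the limma steps on all 34714 symbols. The groups did not overlap for 2 of the 10, 1 higher (Zbtb16) and 1 lower (Nr3c1), against 18.4% of all genes (8.77% higher and 9.58% lower). Over the 10 genes (8 lower and 2 higher), the log2 fold change had a median of -0.25, and that of all genes tested was near 0 (-0.0001). Without WT replicate 3 the median was 0.007, and 1 gene (Zbtb16) had an unadjusted p under 0.05, against 7.95% of all genes in that fit (3.46% higher and 4.49% lower).

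**Figure D2:**
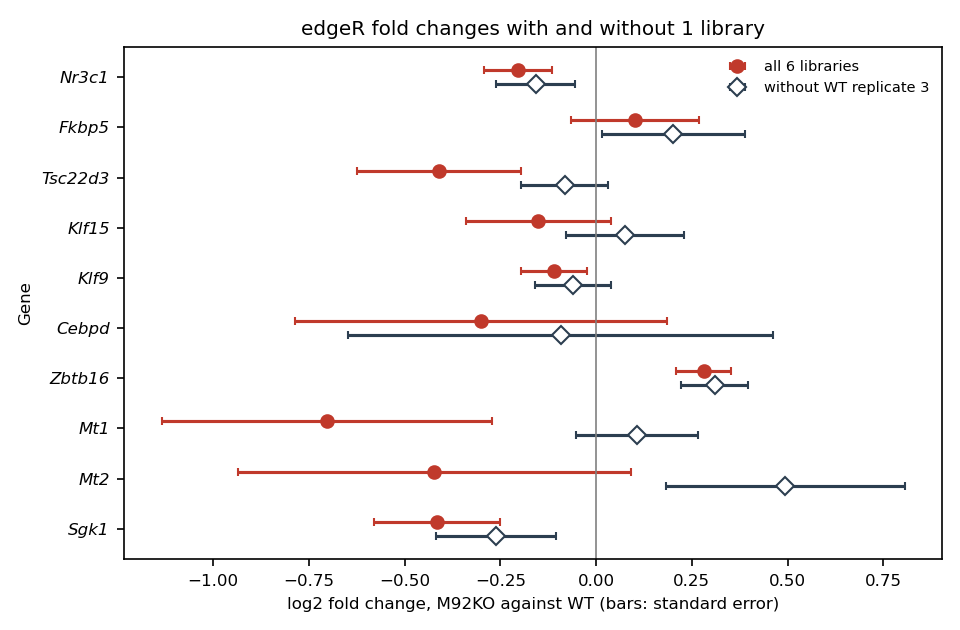
Log2 fold change of M92KO against WT (horizontal axis, with standard errors) from edgeR for each gene, with all 6 libraries (filled circles) and without WT replicate 3 (open diamonds). Klf15, Mt1 and Mt2 change sign when that library is left out, and Zbtb16 is higher in both.

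The library of WT replicate 3 gave the highest value of all 6 for 7 of the 10 genes (Nr3c1, Tsc22d3, Klf15, Klf9, Mt1, Mt2 and Sgk1), whereas it was the highest for 14.8% of all genes tested. M92KO replicate 2 was the highest for Fkbp5 and Zbtb16 and WT replicate 2 for Cebpd. The log2 CPM of the 9 targets was standardized within each gene and averaged over the genes. This mean was -0.64, -0.13 and 1.21 in WT replicates 1 to 3 and -0.31, -0.16 and 0.03 in M92KO replicates 1 to 3. WT mice thus gave both the lowest and the highest profile, and the M92KO mice lay between them. Summed over the 10 genes, the level ranged from 1344 to 1994 CPM in WT and from 1340 to 1402 CPM in M92KO mice.

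**Figure D3:**
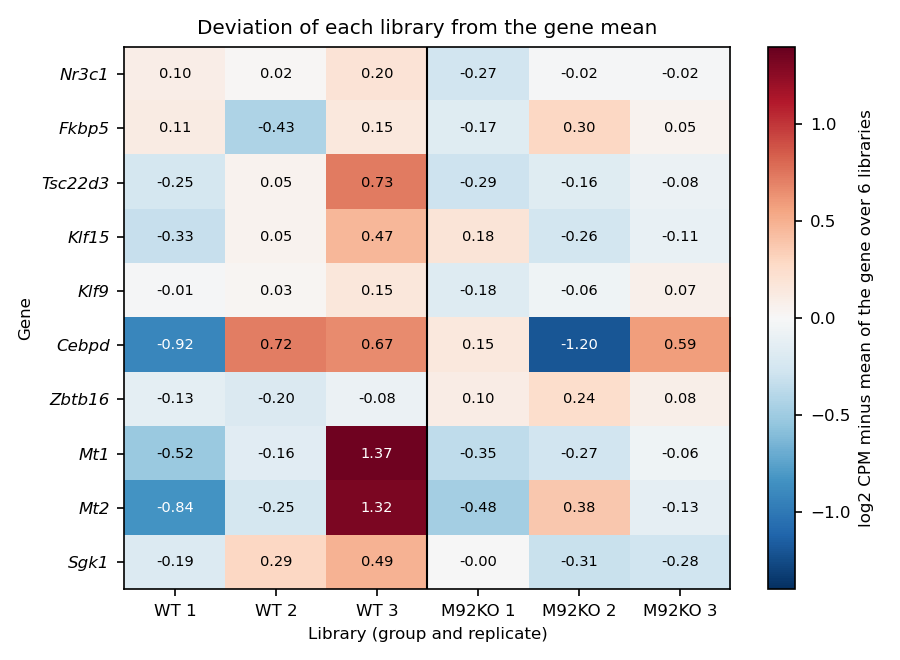
Log2 CPM of each gene in each library minus the mean of that gene over the 6 libraries (colour and printed number, red above and blue below the mean), with WT replicates left of the line and M92KO replicates right of it. The column of WT replicate 3 is positive for 9 of the 10 genes and reaches 1.37 for Mt1, and Zbtb16 is the exception at -0.08.

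The tested genes whose log2 CPM over the 6 libraries was most like the mean profile of the 9 targets were Zfat (Pearson r = 0.98), Jun (r = 0.98), C1galt1c1 (r = 0.98), Gm40582 (r = 0.96) and Exosc6 (r = 0.96). These values describe 6 libraries, the genes were picked for them, and WT replicate 3 carries much of the range. Without it (5 libraries) r was 0.92, 0.95, 0.89, 0.66 and 1.00 in the same order. Jun, an immediate early gene, measured 120, 147 and 208 CPM in WT and 127, 146 and 152 CPM in M92KO muscle, with the highest value again in WT replicate 3.

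Other genes known to be induced by glucocorticoids in muscle formed a second list. Of 22 tested, 1 was higher (Lpin1) and 8 were lower (Per1, Dusp1, Foxo1, Pdk4, Cdkn1a, Angptl4, Cebpb and Errfi1) at an unadjusted p under 0.05, none at an adjusted p under 0.05, and the median log2 fold change was -0.30. Over all genes tested, 5.47% were higher and 6.92% were lower by the same rule. Pdk4, a kinase that shuts off pyruvate oxidation, had 864, 1775 and 1251 CPM in WT and 754, 481 and 435 CPM in M92KO libraries, and edgeR gave a log2 fold change of -1.22 with a standard error of 0.28 and an adjusted p of 0.179. Cebpb, a relative of Cebpd, had a log2 fold change of -0.79 (adjusted p = 0.255). All M92KO values of Pdk4 and Cebpb were below all WT values, as for 9.58% of all genes tested. Cdkn1a, which encodes the cell cycle inhibitor p21, had -0.82 (adjusted p = 0.336, groups overlapping), and Foxo1, a driver of muscle atrophy genes, had -0.21 (adjusted p = 0.352). The log2 fold change was -0.44 for Cdkn1a and -0.47 for Cebpb without WT replicate 3. With each library left out in turn, Pdk4 and Cebpb kept an unadjusted p under 0.05 in all 6 fits, Cdkn1a in 3 and Foxo1 in 2.

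In this list too, WT replicate 3 gave the highest value for 13 of 22 genes. Without that library the median was -0.17, with 1 gene higher and 2 lower at an unadjusted p under 0.05, where 3.46% and 4.49% of all genes were. The list was written by hand with earlier results of these data known, so its counts beside those of all genes are description only. Several of its genes also answer to insulin, fasting or muscle activity.

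The list of receptor machinery held 19 tested genes, for chaperones, coregulators, the mineralocorticoid receptor and enzymes that activate the hormone. At an unadjusted p under 0.05, 1 of them was higher and 1 was lower, against 5.47% and 6.92% of all genes tested. The median log2 fold change of the 19 was -0.03. Stip1, the co-chaperone that joins Hsp70 and Hsp90, had 118, 121 and 139 CPM in WT and 135, 156 and 159 CPM in M92KO muscle (log2 fold change 0.25, adjusted p = 0.336 in edgeR). H6pd, which supplies the cofactor for reactivation of the hormone by Hsd11b1, had 77.3, 78.4 and 83.6 CPM in WT and 74.2, 69.5 and 66.0 CPM in M92KO muscle (log2 fold change -0.19, adjusted p = 0.348). The next smallest p-values were those of the coactivator gene Crebbp (log2 fold change -0.11, adjusted p = 0.579) and the co-chaperone gene Bag1 (0.10, adjusted p = 0.589). Stip1 and H6pd each kept an unadjusted p under 0.05 in 2 of the 6 fits with a library left out.

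Of 5 amino acid breakdown genes known as Klf15 targets, 0 had an unadjusted p under 0.05 in edgeR, against 12.4% of all genes tested. The median log2 fold change of the 5 was -0.01. Gpt2, an alanine aminotransferase, had the smallest p of them, with 348, 362 and 555 CPM in WT and 383, 250.8 and 321 CPM in M92KO muscle (log2 fold change -0.41, adjusted p = 0.470), and its highest value was again in WT replicate 3, without which the log2 fold change was -0.16. Bcat2 (0.08), Prodh (0.14) and Gpt (-0.04) had log2 fold changes nearer to 0.

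Of 9 genes in the list for metal response, 6 had lower and 3 had higher fitted levels in M92KO muscle, with a median log2 fold change of -0.03. At an unadjusted p under 0.05, 1 of them was lower, against 6.92% of all genes tested. That was the copper pump gene Atp7a, whose log2 fold change was -0.28 (adjusted p = 0.365 in edgeR). It was -0.17 without M92KO replicate 1, and without WT replicate 3 no gene of the list had an unadjusted p under 0.05. The others with the smallest p-values were Mt3 (0.64, on at most 0.771 CPM), Gclc (0.12) and Txnrd1 (-0.09), with adjusted p-values between 0.517 and 0.719.

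Family relatives of the members included the lowest fold changes in the lists. Of 26 relatives tested, 1 was higher (Zbtb7b) and 6 were lower (Klf2, Klf3, Klf4, Klf6, Klf7 and Cebpb) at an unadjusted p under 0.05, with a median log2 fold change of -0.11. The shares over all genes tested were 5.47% higher and 6.92% lower. Klf2, a factor that responds to blood flow in endothelial cells, had 61.2, 137 and 210 CPM in WT and 30.8, 32.4 and 45.8 CPM in M92KO muscle (log2 fold change -1.90, adjusted p = 0.179 in edgeR). Klf4 had -1.73 (adjusted p = 0.193), Klf6 had -1.04 (adjusted p = 0.210) and Klf7 had -0.45 (adjusted p = 0.165). For Klf2, Klf4 and Klf7 all M92KO values were below all WT values, as for 9.58% of all genes tested. Without WT replicate 3, 6 relatives were lower and 1 was higher at an unadjusted p under 0.05, with a median of -0.07. In that fit 4.49% of all genes were lower and 3.46% were higher.

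**Figure D4:**
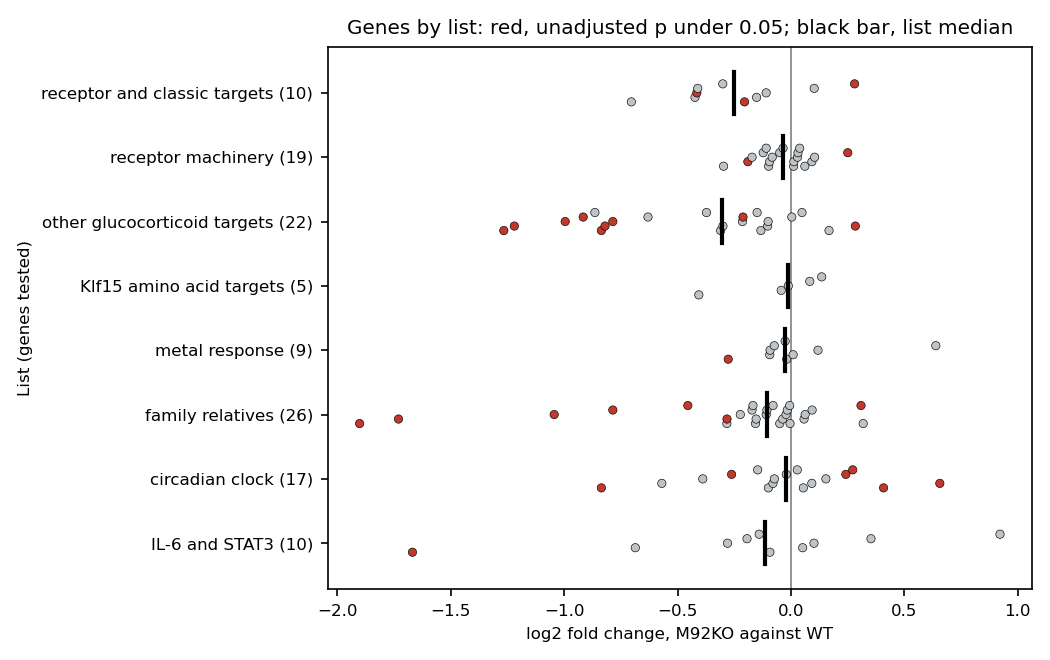
Log2 fold change of M92KO against WT (horizontal axis) for each gene of 8 lists (rows, with the number tested), red where the unadjusted p of edgeR is under 0.05 and grey otherwise, with the list median as a black bar. The receptor and its classic targets have a median of -0.25 and the other glucocorticoid targets one of -0.30, and no gene has an adjusted p under 0.05. The lists were chosen with earlier results of these data known.

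Clock genes are shown because corticosterone is secreted with the time of day and because Per1 and Klf15 follow the clock. Of 17 tested, 4 were higher (Nr1d1, Dbp, Cry2 and Bhlhe41) and 2 were lower, Per1 among them, at an unadjusted p under 0.05. The shares of all genes were 5.47% higher and 6.92% lower. Nr1d1, a clock repressor, had 173, 189 and 170 CPM in WT and 288, 214 and 205 CPM in M92KO muscle (log2 fold change 0.41, adjusted p = 0.267 in edgeR). The output factor Dbp had a log2 fold change of 0.66 (adjusted p = 0.291) and the repressor gene Cry2 had 0.27 (adjusted p = 0.318). Without M92KO replicate 1 the log2 fold change was 0.24 for Nr1d1 and 0.38 for Dbp. Nr1d1 kept an unadjusted p under 0.05 in all 6 fits with a library left out, Dbp in 4 and Cry2 in 2. Without WT replicate 3 the list had 2 genes higher and 1 lower, against 3.46% and 4.49% of all genes in that fit. The part of the time of sampling in the values of the glucocorticoid genes was not tested.

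Cebpd is also a target of interleukin-6 and STAT3. Against 5.47% higher and 6.92% lower of all genes tested, 0 of 10 genes of that signalling were higher and 1 was lower at an unadjusted p under 0.05 in edgeR. That gene was Junb, with 13.1, 33.5 and 118 CPM in WT and 19.98, 19.5 and 12.4 CPM in M92KO muscle (log2 fold change -1.67, adjusted p = 0.365 in edgeR). WT replicate 3 stood far above the other 5 mice, and WT replicate 1 lay inside the M92KO range. Junb had a log2 fold change of -0.43 without WT replicate 3. Serpina3n (0.92), Osmr (-0.19) and Bcl3 (0.35) had adjusted p-values between 0.425 and 0.560.

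Markers of other cell types in the muscle are given beside these values, and their part in the results was not tested. At an unadjusted p under 0.05, 5.47% of all genes tested were higher and 6.92% were lower. Without WT replicate 3 these shares were 3.46% and 4.49%. Of 5 fibroblast markers, all 5 had lower fitted levels in M92KO muscle (median log2 fold change -0.38), and 2 had an unadjusted p under 0.05 (Dcn, -0.33, and Col1a1, -0.55), with a summed level of 1373 to 1741 CPM in WT and 906 to 1290 CPM in M92KO muscle. Of 5 Schwann cell markers, 4 had lower fitted levels, 3 with an unadjusted p under 0.05, among them Mbp (-0.39) and Pmp22 (-0.23). Of 4 leukocyte markers tested, 3 had lower fitted levels (median -0.25), 1 with an unadjusted p under 0.05 (Ptprc, -0.53), with 25.4 to 27.0 CPM in sum in WT and 18.03 to 26.1 CPM in M92KO. Of 5 endothelial markers and of 4 each of fat cells and red cells, 0 had an unadjusted p under 0.05 in edgeR. All 4 fat cell markers had higher fitted levels in M92KO muscle, with a median log2 fold change of 0.73. Without WT replicate 3, which had the highest fat cell sum of the WT mice, the median was 1.41 and 2 of them had an unadjusted p under 0.05. M92KO replicate 2 was the highest library for all 4, and Plin1 and Retn had 4 counts each in WT replicate 2. Over the fits with a library left out, the lowest log2 fold change was -0.14 for Adipoq and -0.06 for Retn. It was 0.13 for Plin1 and 0.33 for Cfd. All 4 red cell markers were also higher in fitted level, with a median of 0.67, or 0.31 without WT replicate 3. Fat cell markers summed to 3.86 to 10.9 CPM in WT and 6.94 to 19.7 CPM in M92KO, and endothelial markers to 732 to 804 CPM and 646 to 833 CPM.

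Red cell markers ranged from 60.7 to 180 CPM in WT and from 117 to 271 CPM in M92KO, and the lowest of these sums was that of WT replicate 3. In the same library, the fibroblast markers summed to 1387 CPM, within the WT range given. The muscle fibre markers had 1 higher member, Des, which encodes desmin (log2 fold change 0.23), and 0 lower ones at an unadjusted p under 0.05.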

How the data were processed

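The authors deposited unnormalized read counts per gene symbol for 6 Gas libraries made with a SMARTer kit. The submitters' processing notes name GRCm38 and mm10. The aligner, counter, annotation and strandedness are not given in the sources used here. As later steps, the supplementary methods list limma on values from normalizeBetweenArrays that were logged (log2) with 1 added. The 10 genes and all lists were chosen with earlier results of these data known.

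edgeR 4.0.16 in R 4.3.3 was used (filterByExpr with a minimum count of 10 and a minimum total of 15, TMM, glmQLFit and glmQLFTest, no covariate), and p-values were adjusted with the Benjamini-Hochberg method over 15788 genes. On simulated counts with a log2 fold change of 1.5, edgeR found 169 of 193 changed genes with 18 false calls among 15576 genes. The 10 genes had smaller fold changes than this, and no outlying library was simulated. The simulation therefore does not measure how often changes of their size are found. Alternatives were DESeq2 1.42.0, DESeq2's size factors, the limma 3.58.1 steps, other filters, offsets for GC content and length, the replicate number as a block, and each library left out. The edgeR p-values set the difference between groups against the spread between these mice, with variance estimates that borrow from other genes. The labels do not tie the mice to litters or days. Positions and 3′-UTRs come from GENCODE M21, in which 25731 symbols were found as written, 419 more through synonyms, and 8564 were not found. Figures were drawn with matplotlib 3.10.9 in Python 3.11.15. The genes named are all 10 members, up to 4 genes of the smallest p in each list, 5 genes most like the target profile, and those counted by name, and 2 genes that this rule would name are left out.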

Additional observations from a re-analysis of the deposited data

How the results depend on the processing

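None of the 10 genes had an adjusted p under 0.05 in any of the 14 alternatives. Their number at an unadjusted p under 0.05, 3, was 1 with the replicate block (Zbtb16) and between 1 (without WT replicate 3) and 4 (without WT replicate 1) when a library was left out. Deviations of same-numbered WT and M92KO libraries from their group means correlated at 0.081, 0.038 and 0.015, none over 0.1, so the numbers were not taken as pairs, and WT replicate 3 correlated better with M92KO replicate 2 (0.036) than with its own number. The number of all genes at an adjusted p under 0.05, 0, was 312 with DESeq2's Wald test, 42 with the limma steps, 6 without the filter, 2 with the replicate block, 2 with the block and the GC and length offsets, and 0 to 401 with a library left out (401 without M92KO replicate 1). At an unadjusted p it was 1222 to 2984 with a library left out, the extremes being without WT replicate 2 and without M92KO replicate 1, against 1955, and 1272 without WT replicate 3. Of these 1955 genes 863 were higher, against 1244 of 2287 with the limma steps. The 24 genes of the other pathway lists were 11 with the limma steps and 13 (without WT replicate 3) to 27 with a library left out, with 15 without WT replicate 2 and 15 without M92KO replicate 3. With a library left out, log2 fold changes turned sign for Fkbp5 (-0.061 to 0.21, below 0 without WT replicate 2 and, at -0.025, without M92KO replicate 2), Klf15 (-0.33 to 0.074), Mt1 (-1.03 to 0.11) and Mt2 (-0.79 to 0.49, these 3 without WT replicate 3), Cebpd (-0.70 to 0.059, above 0 without M92KO replicate 2), Bcat2 (-0.052 to 0.18) and Prodh (-0.15 to 0.29, both below 0 without M92KO replicate 1) and Gpt (-0.11 to 0.012, above 0 without WT replicate 2). The cause was not tested. Past an adjusted p of 0.05 in 1 or 2 alternatives each went Pdk4 and Cry2 (without M92KO replicate 1), Klf7 (DESeq2, and without M92KO replicate 1), Klf2 (DESeq2, and without WT replicate 1), Klf4 (with the block, alone and with the offsets) and Dbp (DESeq2).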
